A study of Homo sapiens with 12 samples.

Results

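The 9 genes described here serve cystine import, glutathione metabolism and the antioxidant response driven by the transcription factor NRF2: SLC7A11, SLC3A2, GCLC, GCLM, GPX2, GPX4, TXNRD1, NQO1 and HMOX1. They were taken by gene symbol for their role in this pathway, by a rule that names no level, although earlier results of these data were known when the set was proposed. They are 9 of the 62426 genes in the count table. RNA of HCT116 and SW480, both established human lines from colorectal carcinoma, was sequenced in 12 libraries. Each line was studied as parental cells, as cells transfected with a plasmid for the standard isoform of the cell surface glycoprotein CD44 (CD44s-OE) and as cells transfected with a plasmid for an isoform that holds variant exon v6 (CD44v6-OE), with 2 libraries per group. Transfected cells had been selected with Geneticin, and their column names call them pools. The controls were untransfected parental cells, and no library of cells with an empty vector was analysed here, so the effect of an isoform and the effect of transfection and selection cannot be told apart in a comparison with parental cells. The labels do not say that the 2 libraries of a group came from separate cultures, so the p-values measure the spread between these libraries, which may be technical.

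SLC7A11, also called xCT, and SLC3A2 form the cystine-glutamate exchanger of the cell surface. Imported cystine gives cysteine, which limits the synthesis of glutathione, and glutathione is the electron donor with which glutathione peroxidases reduce peroxides, including the lipid peroxides that drive ferroptosis. NRF2, encoded by NFE2L2, is held low by KEAP1 and, once released, binds antioxidant response elements in the promoters of many such genes, where BACH1 competes with it. CD44 variant protein is known to bind xCT and to stabilise it at the cell surface, which is a matter of protein and is not visible in RNA counts.

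Levels are given as CPM, counts scaled to library size, with TMM factors over the 12 libraries, and comparisons between genes as RPKM, which also divides by the summed exon length. Library totals ran from 43102156 to 52811889 counts. A library with no count of a gene could still hold up to 6 counts of it (0.114 to 0.139 CPM), and this limit covers counting error alone. Between the 2 libraries of a group, the SD of the log2 difference over genes ran from 0.14 in HCT116 CD44v6-OE to 0.44 in HCT116 CD44s-OE, with 0.42 in SW480 parental. The count of CD44 itself was not higher in most libraries labelled as overexpressing it. HCT116 had 538.8 and 540.3 CPM in parental cells, 570.9 and 516.4 CPM in CD44s-OE, and 502.8 and 506.9 CPM in CD44v6-OE. SW480 had 186.9 and 161.3 CPM in parental cells, 179.3 and 204.7 CPM in CD44s-OE, and 134 and 145.7 CPM in CD44v6-OE. None of the 4 comparisons of CD44 with parental cells passed (edgeR, adjusted p = 0.58 to 0.96). The study examined CD44s and CD44v6 in its overexpressing cells by RT-qPCR and western blot. A count over the whole gene does not separate the isoforms and does not show protein. Every direction below is therefore a direction between libraries labelled CD44s-OE, CD44v6-OE and parental. Of the defining markers of colon epithelium, KRT8, KRT18, EPCAM and CDX2 were expressed in both lines, while CDX1, CDH17 and LGALS4 were at or near 0. CDH1 ran from 14.6 to 65.2 CPM in HCT116 and from 0.89 to 17 CPM in SW480. VIL1 ran from 0.0373 to 0.398 CPM in HCT116 and from 5.89 to 20.1 CPM in SW480, and KRT20 from 1.13 to 2.98 CPM and from 0.126 to 0.218 CPM.

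Short promoter windows were searched for the letters that NRF2 recognises, and sequence outside these windows was not searched. The core of the antioxidant response element, written TGACNNNGC and searched on both strands, occurred in 4687 of 35116 RefSeq promoters (13.3%; GRCh38.p14, 250 bases before to 50 after the start). Of the 9 genes, 7 had a promoter in that table, with 12 windows in all, since a gene may have several. The letters occurred in 5 of the 12 windows, from 4 of the 7 genes. SLC7A11 and HMOX1 had no entry. The windows below are from GPX2 and GCLM, whose RNA changed in a comparison with parental cells, and from SLC3A2 and TXNRD1, whose RNA did not pass there. Each window has 29 bases, reads 5′ to 3′ on the strand of the gene and has the matched letters in capitals, which are the reverse complement of the motif where the match is on the other strand.
GPX2, chr14:64942849-64942877, minus strand: acctgtttttGCTAAGTCAtcctggggat
GCLM, chr1:93909446-93909474, minus strand: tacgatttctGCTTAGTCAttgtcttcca
SLC3A2, chr11:62881652-62881680, plus strand: cgagggtgggTGACTCAGCgtcctccttc
TXNRD1, chr12:104286920-104286948, plus strand: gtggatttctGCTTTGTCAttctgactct
The match in SLC3A2 lay on the strand of the gene and the other 3 on the opposite strand. TXNRD1 held 2 further matches in its other promoter, and SLC3A2 held a match in 1 of its 3 windows. NQO1, whose RNA differed between groups of SW480, did not have these letters in the window searched, nor did GCLC or GPX4. A match is a stretch of letters and was not tested for binding.

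Per exon length, GPX4 was the highest of the 9 in both lines, with a mean of 288 RPKM over the 6 HCT116 libraries and 271 RPKM over the 6 SW480 libraries. NQO1 (103 RPKM) and SLC3A2 (53.4 RPKM) followed in HCT116, and SLC3A2 (81.8 RPKM) and NQO1 (62 RPKM) in SW480. The exchanger's 2 chains stood far apart in RNA level. SLC7A11 was at 2.54 RPKM in HCT116 and at 0.741 RPKM in SW480, where it was the lowest of the 9. GPX2 was the lowest in HCT116, at 0.111 RPKM, and the fifth of the 9 in SW480, at 10.4 RPKM.

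**Figure D1:**
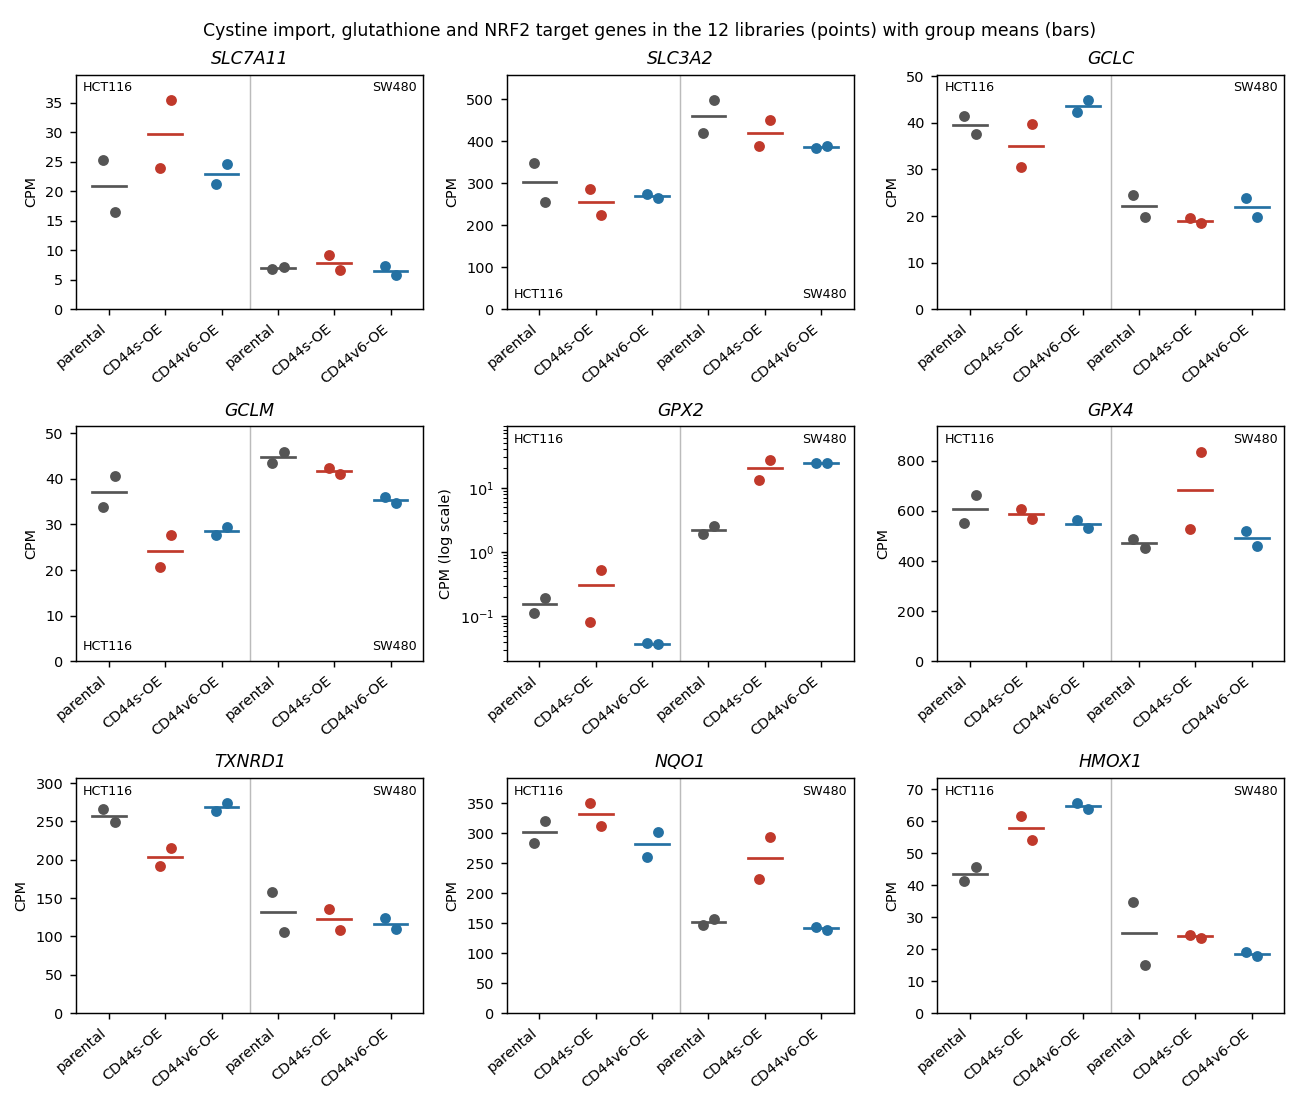
CPM of the 9 genes (vertical axes; log scale for GPX2, linear from 0 for the others) in the 2 libraries of each group (points) with the group mean (bar), HCT116 left and SW480 right of the grey line. GPX2 stands at or below 0.531 CPM in every HCT116 library and at or above 13.1 CPM in the 4 SW480 libraries labelled CD44s-OE or CD44v6-OE.

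In HCT116, a gene passed at an adjusted p under 0.1 in edgeR's quasi-likelihood test with Benjamini-Hochberg adjustment over all tested genes, the threshold used throughout. GPX2 was too low to be tested in this line, which left 8 genes. In libraries labelled CD44s-OE against parental, 1 of the 8 passed, GCLM, which was lower, against 14.2% of all genes tested (5.71% lower). In CD44v6-OE against parental, 0 of the 8 passed in edgeR, against 1.53% of all genes. There 1 gene, HMOX1, had an unadjusted p under 0.05, and 1 passed in DESeq2, against 560 of 17159 genes. In CD44s-OE against CD44v6-OE, 0 of the 8 passed in either tool, against 0.813% of all genes in edgeR and 493 of 15065 in DESeq2. There 1, TXNRD1, had an unadjusted p under 0.05. These shares are close to the background, so they are no result about the 9 genes as a group. For an unadjusted p under 0.05 the share of all genes is not given.

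In SW480 all 9 genes were tested. GPX2 and NQO1 rose in libraries labelled CD44s-OE against parental, 2 of 9 genes against 4.72% of all genes (2.5% higher). GPX2 alone rose in CD44v6-OE against parental, 1 of 9 against 0.57% of all genes (0.542% higher). NQO1 alone differed between the isoforms, where it was higher in CD44s-OE, 1 of 9 against 2.12% of all genes (0.57% higher). The comparisons with parental cells share the 2 parental libraries. Median log2 fold changes of the 9 were -0.07 and -0.13 against parental cells, beside 0.00 and -0.01 over all genes tested, so the rise of GPX2 was not a rise of the set.

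**Figure D2:**
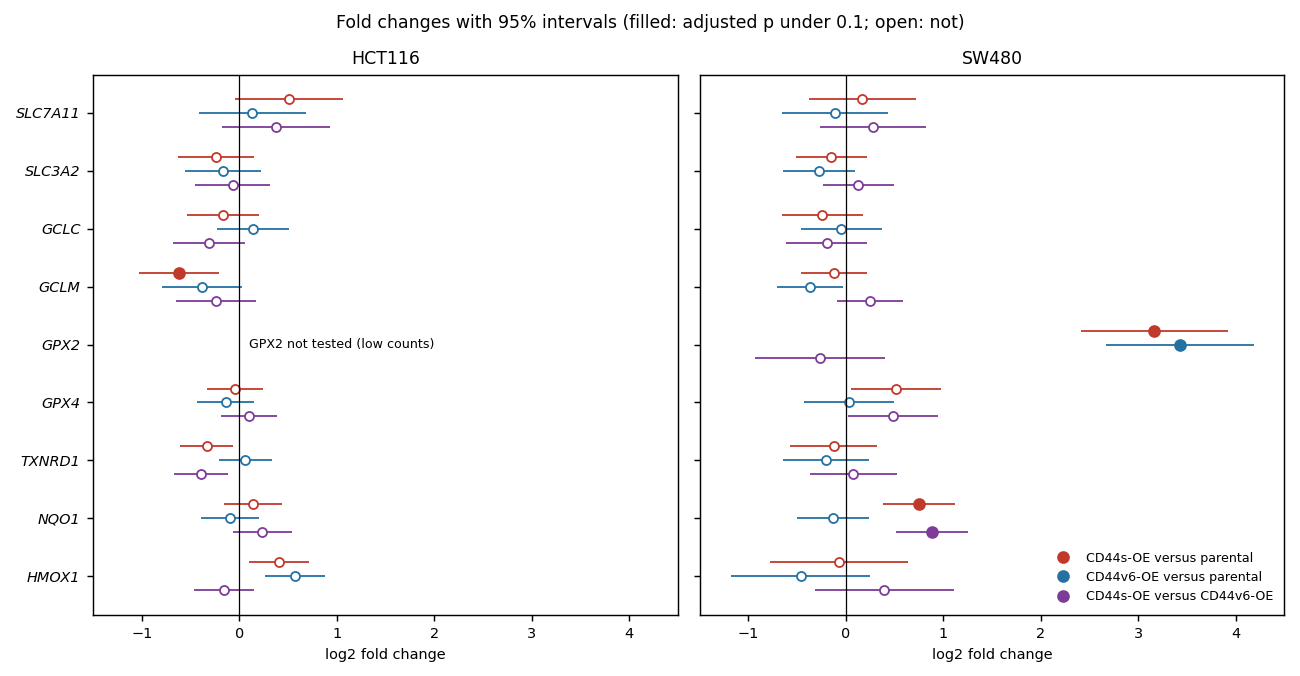
Log2 fold changes (horizontal axis) of the 9 genes in HCT116 (left) and SW480 (right), with 95% intervals as lines. Filled points passed at an adjusted p under 0.1 and open points did not: GCLM in HCT116, and GPX2 and NQO1 in SW480.

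SLC7A11 (ENSG00000151012; hg19 chr4:139085251-139163503, minus strand) encodes the light chain that carries cystine inward. In HCT116 its RNA was 25.4 and 16.5 CPM in parental cells, 23.9 and 35.5 CPM in CD44s-OE and 21.2 and 24.7 CPM in CD44v6-OE. SW480 had 6.80 and 7.09 CPM in parental cells, 9.22 and 6.62 CPM in CD44s-OE and 7.35 and 5.78 CPM in CD44v6-OE. The transfected groups overlapped the parental libraries in both lines, and the only gap in the order of the 6 groups lay between the lines. No comparison within a line passed. The log2 fold change was 0.51 (95% interval -0.04 to 1.06, adjusted p = 0.232) in HCT116 CD44s-OE and 0.13 (-0.42 to 0.69, adjusted p = 0.881) in HCT116 CD44v6-OE, by edgeR. In SW480 it was 0.17 (-0.38 to 0.71, adjusted p = 0.808) in CD44s-OE and -0.11 (-0.66 to 0.44, adjusted p = 0.947) in CD44v6-OE. These intervals leave room for a change of up to about 1 log2 unit in HCT116 CD44s-OE. By edgeR with 1 library left out at a time, the HCT116 CD44s-OE value ran from 0.18 to 0.85. It was 0.76 without HCT116 CD44s-OE replicate 1. With no filter on low counts it was 0.50 at an adjusted p of 0.0924 (edgeR). Over the alternative runs with no library left out, in edgeR or DESeq2, that adjusted p was the lowest and 0.343 the highest.

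SLC3A2 (ENSG00000168003; hg19 chr11:62623574-62656347, plus strand) encodes the heavy chain, which also serves other amino acid transporters. It was 348.7 and 255.3 CPM in HCT116 parental cells, 287.1 and 224.6 CPM in CD44s-OE and 273.3 and 263.7 CPM in CD44v6-OE. SW480 held 419.3 and 498.5 CPM in parental cells, 387.8 and 451.2 CPM in CD44s-OE and 383.3 and 389.3 CPM in CD44v6-OE. SLC3A2 levels overlapped between parental and CD44s-OE libraries in both lines and lay lower in CD44v6-OE only in SW480. Its 6 log2 fold changes within a line ran from -0.28 to 0.13, with adjusted p of 0.429 or more by edgeR. Without HCT116 CD44s-OE replicate 1, the log2 fold change of SLC3A2 in HCT116 CD44s-OE against parental cells was -0.43.

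Glutamate-cysteine ligase makes the first step of glutathione synthesis, and GCLC and GCLM encode its catalytic and modifier subunits. GCLM (ENSG00000023909; hg19 chr1:94350755-94375012, minus strand) was 33.8 and 40.6 CPM in HCT116 parental cells, 20.6 and 27.8 CPM in CD44s-OE and 27.7 and 29.4 CPM in CD44v6-OE. Both transfected groups lay below the parental libraries. GCLM fell in HCT116 CD44s-OE, and edgeR put its log2 fold change at -0.62 ± 0.18 (SE) with an adjusted p of 0.0716. In HCT116 CD44v6-OE the value was -0.38 (95% interval -0.79 to 0.03, adjusted p = 0.488). That value passed with only the 4 libraries compared (-0.38, adjusted p = 0.0798), where 1791 of 16711 genes passed, against 266 of 17335 in the main fit. Without either CD44s-OE library it was -0.38 and -0.39. The call on GCLM in CD44s-OE was lost without either parental library (adjusted p = 0.13 and 0.387), without either CD44v6-OE library (0.159 for both) and when only the 4 libraries of the 2 groups were fitted (0.16), with log2 fold changes between -0.75 and -0.49. In SW480, GCLM was 43.5 and 46 CPM in parental cells, 42.3 and 41.1 CPM in CD44s-OE and 35.9 and 34.7 CPM in CD44v6-OE. CD44v6-OE was lowest there, at a log2 fold change of -0.37 (95% interval -0.71 to -0.03) that did not pass (adjusted p = 0.509).

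GCLC (ENSG00000001084; hg19 chr6:53362139-53481768, minus strand) was 41.4 and 37.7 CPM in HCT116 parental cells, 30.4 and 39.7 CPM in CD44s-OE and 42.2 and 45 CPM in CD44v6-OE. It was 24.6 and 19.8 CPM in SW480 parental cells, 19.6 and 18.4 CPM in CD44s-OE and 24 and 19.9 CPM in CD44v6-OE. The CD44v6-OE libraries of HCT116 lay just above its parental ones, and the catalytic subunit gave no call within a line. Its log2 fold changes ran from -0.31 to 0.14, with adjusted p of 0.558 or more by edgeR. Without HCT116 CD44s-OE replicate 2, GCLC in CD44s-OE was at -0.53 against CD44v6-OE and at -0.39 against parental cells.

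GPX2 (ENSG00000176153; hg19 chr14:65405870-65409623, minus strand) encodes the glutathione peroxidase of the gastrointestinal epithelium, which reduces hydrogen peroxide and is a known NRF2 target. In SW480 it was 1.92 and 2.52 CPM in parental cells, 13.1 and 27.5 CPM in CD44s-OE and 24.5 and 24.4 CPM in CD44v6-OE. All 4 libraries of transfected cells were above both parental libraries. GPX2 rose in CD44s-OE by 3.16 ± 0.34 on the log2 scale (SE), an 8.96-fold difference (adjusted p = 0.00135, edgeR). It rose in CD44v6-OE by 3.43 ± 0.34, a 10.8-fold difference (adjusted p = 0.00327). Between the isoforms the log2 fold change was -0.26 (95% interval -0.93 to 0.41, adjusted p = 0.827), and the CD44v6-OE libraries lay inside the range of the 2 CD44s-OE libraries. Both calls against parental cells held without any 1 library. The rise in CD44s-OE was 2.54 (adjusted p = 0.0186) without CD44s-OE replicate 2. In bulk RNA, a larger share of cells that express GPX2 and more GPX2 RNA per cell cannot be told apart.

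In HCT116 the raw GPX2 counts were 6 and 10 in the parental libraries, 4 and 28 for CD44s-OE and 2 and 2 for CD44v6-OE, or 0.0373 to 0.531 CPM. Several of these libraries are at or below what a count of 0 allows, and no fold change is given for this line. The difference between the lines in the CD44v6-OE effect was 5.42 ± 1.15 on the log2 scale for GPX2 (SE; adjusted p = 0.108, edgeR on 12 libraries), and it did not pass. In the CD44s-OE effect it was 2.19 ± 0.91 (adjusted p = 0.25). Both values rest on these few HCT116 counts. In DESeq2 and with no filter on low counts the values of GPX2 were close to these and passed, at 5.50 and 5.44 for CD44v6-OE (adjusted p = 0.0000313 in DESeq2) and at 2.19 and 2.21 for CD44s-OE (adjusted p = 0.0461 and 0.00821). More of all genes passed in DESeq2 too, 343 of 18469 against 80 of 19567 for CD44v6-OE and 1620 of 15336 against 768 of 19567 for CD44s-OE. With 1 library left out at a time the CD44v6-OE value ran from 4.99 to 5.76. It was 5.42 to 5.43 without SW480 CD44v6-OE replicate 2 or without a CD44s-OE library of either line, which is not in that comparison. The CD44s-OE value followed single libraries. It was 4.11 without HCT116 CD44s-OE replicate 2, 1.42 without HCT116 CD44s-OE replicate 1 and 1.56 without SW480 CD44s-OE replicate 2.

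Summed levels of some cell identity markers also differed between the groups of SW480. The summed level of 10 markers of colon epithelial identity was 16000 to 17600 CPM in parental cells, 7530 to 9230 CPM in CD44s-OE and 12700 to 13900 CPM in CD44v6-OE. KRT8 and KRT18 made up most of these sums. The 6 leukocyte markers summed to 1.44 to 2.3 CPM in parental cells, 3.99 to 5.38 CPM in CD44s-OE and 3.35 to 3.56 CPM in CD44v6-OE. CD14 (1.16 to 4.39 CPM over SW480) and LYZ (0.16 to 1.29 CPM) made up most of these sums. PTPRC did not exceed 0.042 CPM in SW480, CD68 0.0219 CPM or CD3E 0.227 CPM, and MS4A1 was at 0. The 6 fibroblast markers did not exceed 4.8 CPM in any SW480 library. In HCT116 the fibroblast markers summed to 13.5 to 18.5 CPM in parental cells, 33.2 to 56.3 CPM in CD44s-OE and 31.3 to 34.6 CPM in CD44v6-OE, nearly all from COL1A1 and COL3A1, with DCN and LUM at or near 0. The part of these shifts in the changes of GPX2, NQO1 and GCLM was not tested.

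GPX4 (ENSG00000167468; hg19 chr19:1103925-1106790, plus strand) reduces lipid peroxides within membranes and is the enzyme that holds back ferroptosis. It was 551.5 and 661.9 CPM in HCT116 parental cells, 606.8 and 569.2 CPM in CD44s-OE and 565.6 and 533.2 CPM in CD44v6-OE. SW480 had 489.4 and 453.8 CPM in parental cells, 527.4 and 837 CPM in CD44s-OE and 520.1 and 460.9 CPM in CD44v6-OE. One CD44s-OE library of SW480 stood above all others. The log2 fold change there was 0.51 (95% interval 0.05 to 0.98, adjusted p = 0.26, edgeR) and did not pass, and the remaining values within a line ran from -0.14 to 0.49. With no filter on low counts the SW480 CD44s-OE value of GPX4 was 0.52 at an adjusted p of 0.0654.

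TXNRD1 (ENSG00000198431; hg19 chr12:104609557-104744085, plus strand) encodes cytosolic thioredoxin reductase, which serves the system that works beside glutathione. In HCT116 it was 265.7 and 249.2 CPM in parental cells, 192.2 and 215.5 CPM in CD44s-OE and 263.4 and 273.5 CPM in CD44v6-OE. Both CD44s-OE libraries lay below the other 4. The log2 fold change of TXNRD1 in CD44s-OE was -0.34 against parental cells (95% interval -0.61 to -0.06, adjusted p = 0.124) and -0.40 against CD44v6-OE (-0.67 to -0.12, adjusted p = 0.268), and neither passed in edgeR. Without CD44s-OE replicate 2 these values were -0.44 and -0.49. In SW480, TXNRD1 was 158.1 and 105.6 CPM in parental cells, 136 and 108.6 CPM in CD44s-OE and 123.5 and 109.8 CPM in CD44v6-OE, with overlap among all 3 groups.

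NQO1 (ENSG00000181019; hg19 chr16:69740899-69760571, minus strand) encodes a quinone reductase that is a common readout of NRF2 activity. In SW480 it was 146.4 and 157.7 CPM in parental cells, 224.2 and 293.7 CPM in CD44s-OE and 144.3 and 138.4 CPM in CD44v6-OE. Both CD44v6-OE libraries lay just below both parental ones, and the CD44s-OE libraries stood above all others of this line. Against parental cells NQO1 rose there by 0.75 ± 0.17 log2 units (SE; 1.68-fold, adjusted p = 0.0382, edgeR), and it was higher by 0.88 ± 0.17 than in CD44v6-OE (1.84-fold, adjusted p = 0.0264). Against parental cells the CD44v6-OE value was -0.13 (95% interval -0.50 to 0.23, adjusted p = 0.896). The call against parental cells was lost without CD44s-OE replicate 2 (0.55, adjusted p = 0.369) and also, at an unchanged size of 0.75, without CD44v6-OE replicate 1 (adjusted p = 0.107) or 2 (0.103) and in a fit of only the 4 libraries compared (0.121). The call between the isoforms was lost without CD44s-OE replicate 2, where NQO1 was at 0.67 (adjusted p = 0.332). It was also lost without CD44v6-OE replicate 1 or 2, where the difference kept its size at 0.90 (adjusted p = 0.306) and 0.86 (adjusted p = 0.355).

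In HCT116, NQO1 was 283 and 320.2 CPM in parental cells, 349.8 and 312.9 CPM in CD44s-OE and 260.7 and 302.3 CPM in CD44v6-OE. The log2 fold change in HCT116 CD44s-OE was 0.14 (95% interval -0.16 to 0.44, adjusted p = 0.563). The difference between the lines in this effect was 0.63 ± 0.22 (SE; adjusted p = 0.158, edgeR), so an effect particular to SW480 was not shown.

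HMOX1 (ENSG00000100292; hg19 chr22:35776354-35790200, plus strand) encodes heme oxygenase 1, which breaks down heme and is repressed by BACH1. In HCT116 it was 41.4 and 45.8 CPM in parental cells, 61.7 and 54 CPM in CD44s-OE and 65.6 and 63.9 CPM in CD44v6-OE. All 4 libraries of transfected cells lay above both parental libraries. The log2 fold changes of HMOX1 were 0.41 (95% interval 0.10 to 0.72, adjusted p = 0.101) in CD44s-OE and 0.57 (0.26 to 0.88, adjusted p = 0.121) in CD44v6-OE, and neither passed in edgeR. The CD44v6-OE value passed in DESeq2 (0.55, adjusted p = 0.0461), in a fit of only the 4 libraries compared (0.57, adjusted p = 0.00452) and with no filter on low counts (0.56, adjusted p = 0.0359). More of all genes passed in these runs too. They were 560 of 17159 in DESeq2, 1791 of 16711 with the 4 libraries and 788 of 36008 with no filter, against 266 of 17335 in the main fit. In other alternative runs with no library left out, the adjusted p of the CD44v6-OE value went up to 0.523 (edgeR or DESeq2). With 1 library left out at a time the CD44v6-OE value ran from 0.50 to 0.64, with 0.568 and 0.565 without CD44s-OE replicate 1 or 2. The CD44s-OE value ran from 0.31 to 0.49, the highest without CD44s-OE replicate 2. It passed in edgeR with a mean count of at least 50 as the filter (0.44, adjusted p = 0.0745). Its adjusted p went up to 0.409 in other alternative runs (edgeR or DESeq2).

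In SW480, HMOX1 was 34.8 and 15.2 CPM in parental cells, 24.4 and 23.6 CPM in CD44s-OE and 19 and 17.8 CPM in CD44v6-OE. Its parental libraries differed from each other by more than any group means did. The log2 fold change of HMOX1 in SW480 CD44v6-OE was -0.47 (95% interval -1.18 to 0.25, adjusted p = 0.749). It was -0.94 without parental replicate 2 and 0.25 without parental replicate 1. In SW480 CD44s-OE it was -0.07 (-0.78 to 0.64, adjusted p = 0.951), and -0.55 without parental replicate 2.

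The effect of each isoform was also compared between the lines in 1 fit of the 12 libraries. By edgeR, 0 of the 9 genes passed in the CD44s-OE effect, against 3.92% of all genes, while 4 had an unadjusted p under 0.05. In DESeq2 1 passed, against 1620 of 15336 genes. In the CD44v6-OE effect 0 passed, against 0.409% of all genes, while 2 had an unadjusted p under 0.05. There 1 passed in DESeq2, against 343 of 18469 genes. For CD44s-OE against CD44v6-OE, 0 passed, against 0.491% of all genes, while 2 had an unadjusted p under 0.05. Here 1 passed in DESeq2, against 343 of 16902 genes. These tests share libraries with the comparisons within each line. What share of all genes had an unadjusted p under 0.05 is not given, so counts at that level are no result about the 9 genes.

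Most of the 9 genes differed between the parental cells of the lines. There 7 of the 9 passed, 2 higher and 5 lower in SW480, against 60.9% of all genes (31.7% higher and 29.2% lower), so the share was close to that of all genes. SLC7A11 was lower in SW480, with a log2 difference of -1.59 ± 0.26 (SE; adjusted p = 0.000154, edgeR), while its partner SLC3A2 was higher by 0.60 ± 0.17 (adjusted p = 0.00949). GCLC (-0.83 ± 0.18, adjusted p = 0.00135), TXNRD1 (-0.97 ± 0.18, adjusted p = 0.000468) and NQO1 (-0.99 ± 0.16, adjusted p = 0.000107) were lower too. HMOX1 was lower as well (-0.81 ± 0.27, adjusted p = 0.0204), which was -1.53 without SW480 parental replicate 1 and did not pass without SW480 parental replicate 2 (-0.33, adjusted p = 0.158). GPX2 was higher in SW480 by 3.83 ± 0.61 (adjusted p = 0.000181) on 6 and 10 counts in HCT116 against 76 and 126 in SW480. The call on SLC3A2 was lost without HCT116 parental replicate 2 (0.39, adjusted p = 0.135). GCLM (0.27, 95% interval -0.09 to 0.62, adjusted p = 0.19) and GPX4 (-0.36, -0.77 to 0.04, adjusted p = 0.117) did not pass. GPX4 passed with no filter on low counts (-0.40, adjusted p = 0.0349, edgeR). Its adjusted p went up to 0.178 in other alternative runs with no library left out (edgeR or DESeq2). With 1 library left out at a time the GPX4 value ran from -0.49 to -0.23, with -0.36 without either SW480 CD44s-OE library. Line and any difference in how the lines were handled cannot be told apart.

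**Figure D3:**
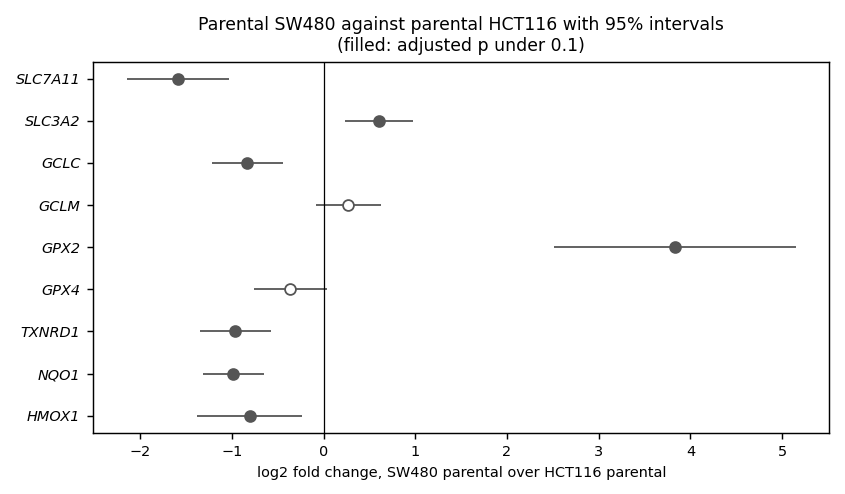
Log2 fold change (horizontal axis) of SW480 parental over HCT116 parental for the 9 genes, 2 libraries per line, with 95% intervals. Filled points passed at an adjusted p under 0.1: SLC3A2 and GPX2 lie above 0, and SLC7A11, GCLC, TXNRD1, NQO1 and HMOX1 below it.

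The regulators of NRF2 gave no call against parental cells. NFE2L2, which encodes NRF2, ran from 62.3 to 84.4 CPM in HCT116 and from 63.4 to 89.5 CPM in SW480, and its log2 fold changes against parental cells lay between -0.19 and 0.21 (adjusted p of 0.65 or more, edgeR). KEAP1, its repressor, had -0.36 ± 0.13 in HCT116 CD44s-OE (SE; adjusted p = 0.122), with 132.4 and 140.5 CPM against 161.5 and 188.7 CPM in parental cells. BACH1 had 0.56 ± 0.23 (adjusted p = 0.165) in HCT116 CD44s-OE and 0.67 ± 0.23 (adjusted p = 0.307) in CD44v6-OE. Of the 8 regulators listed, 0 passed in any of the 4 comparisons with parental cells by edgeR. Per comparison, 0 to 3 had an unadjusted p under 0.05, a level at which the share of all genes is not given. RNA levels do not show how much NRF2 protein is active.

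Beyond the 9, 89 genes in 6 lists cover regulators and other targets of NRF2, glutathione synthesis and transfer, peroxidases and the thioredoxin system, light chains that pair with SLC3A2, and ferroptosis. In each line 81 of the 89 were tested. In HCT116 CD44s-OE against parental, 7 rose and 7 fell, 14 of 81 against 14.2% of all genes, with a median log2 fold change of -0.06 beside 0.04 over all genes. In HCT116 CD44v6-OE 0 passed by edgeR, against 1.53% of all genes. There 10 had an unadjusted p under 0.05, a level at which the share of all genes is not given. In SW480 CD44s-OE 6 rose and 1 fell, 7 of 81 against 4.72% of all genes, and in SW480 CD44v6-OE 1 rose, against 0.57%. These counts were not tested against other genes, and nothing particular to the lists is read from them.

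In HCT116 CD44s-OE 4 of the 25 listed NRF2 targets tested were higher and 4 were lower, where 14.2% of all genes passed and 5.71% were lower. CBR3, a carbonyl reductase (1.57 ± 0.33 on the log2 scale, SE; adjusted p = 0.025, edgeR), ABCC3, an exporter of conjugates (1.48 ± 0.29, adjusted p = 0.0191), and EPHX1, an epoxide hydrolase (0.53 ± 0.15, adjusted p = 0.0569), rose. FTH1 (-0.73 ± 0.13, adjusted p = 0.014) and FTL (-0.54 ± 0.12, adjusted p = 0.0302), the 2 chains of ferritin, fell, as did TKT, a pentose phosphate enzyme (-0.53 ± 0.14, adjusted p = 0.0504). The ferritin genes have many processed pseudogenes, so their counts are uncertain. Among 20 glutathione genes, GSTM2, GLRX and GSTM4 rose and GSR, glutathione reductase, fell (-0.66 ± 0.14, adjusted p = 0.0273). GLRX, a glutaredoxin, rose by 1.05 ± 0.16 (adjusted p = 0.00772). The GSTM genes are close copies of each other, and GSTM2 did not exceed 1.75 CPM. CBR3 was low too, at 0.758 and 0.996 CPM in HCT116 parental cells and 2.75 and 2.45 CPM in CD44s-OE. TFRC, the transferrin receptor (-0.68 ± 0.17, adjusted p = 0.04), and DHODH, a mitochondrial enzyme that reduces ubiquinone (-0.54 ± 0.17, adjusted p = 0.0793), fell among the 12 ferroptosis genes.

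In SW480 CD44s-OE, 3 of the 17 tested genes of the list of peroxidases, dismutases and the thioredoxin system rose, where 2.5% of all genes were higher. CAT, catalase, was 27 and 31.8 CPM in parental cells and 60 and 62.7 CPM in CD44s-OE, a rise of 1.04 ± 0.18 (SE; adjusted p = 0.0138, edgeR). GPX7 (1.03 ± 0.24, adjusted p = 0.0435) and GPX8 (0.65 ± 0.18, adjusted p = 0.0913), peroxidases of the endoplasmic reticulum, rose as well. Of the NRF2 targets, PIR rose (0.99 ± 0.21, adjusted p = 0.0337), and AKR1C3, an aldo-keto reductase, passed in both CD44s-OE (adjusted p = 0.00475) and CD44v6-OE (adjusted p = 0.0274). AKR1C3 was 0.101 and 0 CPM in parental cells, within what a count of 0 allows, 1.51 and 3.04 CPM in CD44s-OE and 2.27 and 1.99 CPM in CD44v6-OE. No fold change is given for it, and its close paralogs make its counts uncertain. SLC40A1, the iron exporter ferroportin, rose in CD44s-OE (2.05 ± 0.41, adjusted p = 0.0234) and was also higher there than in CD44v6-OE (2.15 ± 0.41, adjusted p = 0.0265). Its level was low, at 0.505 and 0.639 CPM in parental cells and 2.33 and 2.51 CPM in CD44s-OE. CHAC1, which degrades glutathione, fell in CD44s-OE from 25.9 and 14.7 CPM to 8.09 and 10.2 CPM (-1.17 ± 0.28, adjusted p = 0.0491).

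**Figure D4:**
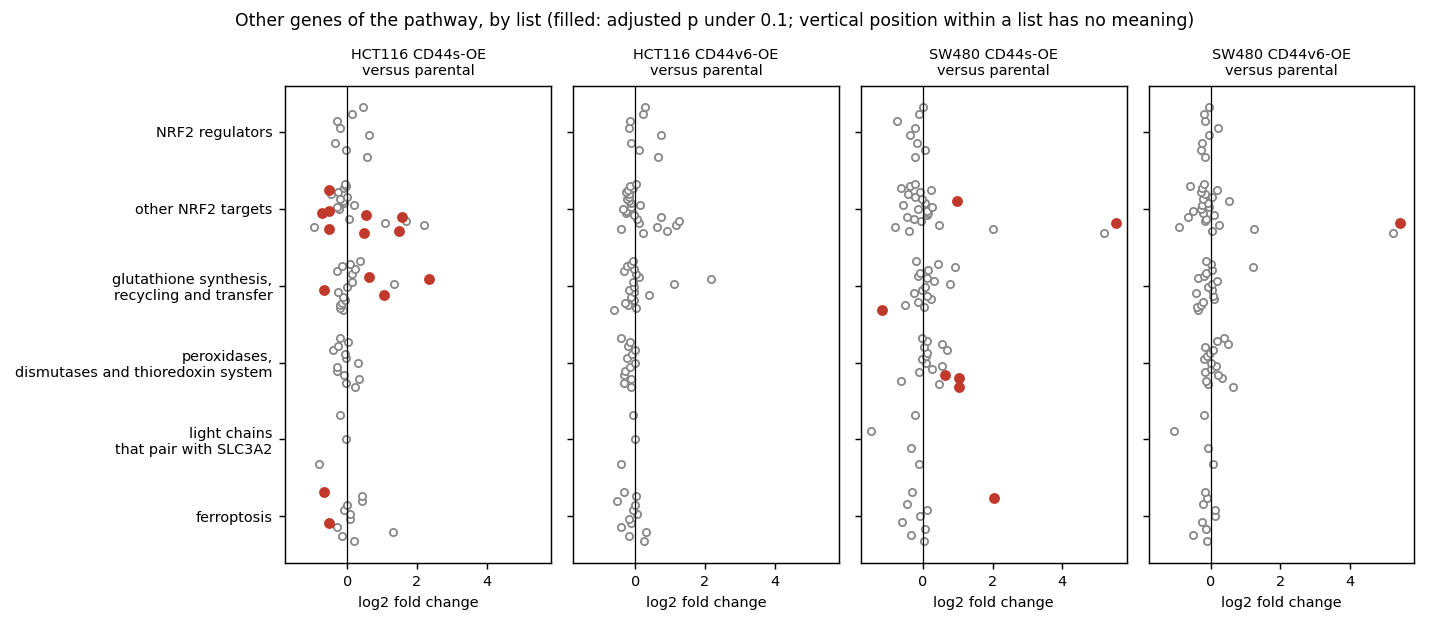
Log2 fold changes (horizontal axes) of the tested genes of the 6 lists (1 point per gene, spread vertically within its list) in the 4 comparisons with parental cells. Filled points passed at an adjusted p under 0.1: 14 in HCT116 CD44s-OE, 0 in HCT116 CD44v6-OE, 7 in SW480 CD44s-OE and 1 in SW480 CD44v6-OE.

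Genes whose pattern over the 12 libraries was most like that of SLC7A11 and of GPX2 were sought by Pearson's r of log2 CPM centred within each line. They were sought among genes with a symbol and a mean log2 CPM of at least 1 in both lines. For SLC7A11 these were RANBP6 (r = 0.928), WDFY1 (0.889), ZFAND6 (0.888), ATXN3 (0.881) and MRE11 (0.872), of 10980 genes. For GPX2 they were CHDH (r = 0.923), SH2B1 (0.908), IL17RB (0.904), CDK6 (0.881) and TP53I3 (0.876), of 10981 genes. GPX2 itself was below that level in HCT116, where the libraries held 2 to 28 counts, so its values rest in part on counting error. None of the other 8 genes was among either 5. The points share library depth and group, and the values are a description of these 12 libraries.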

How the data were processed

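RNA was extracted with Trizol and polyA RNA was sequenced in pairs on the DNBSEQ platform. Per the labels and the study's methods, the authors filtered reads with SOAPnuke, aligned them to hg19 with STAR 2.7.9a and counted exons per GENCODE gene with featureCounts (Subread 2.0.3), stranded. The deposited table holds the authors' raw counts of 62426 genes with exon lengths. Counts of 4 and 6 were at least 1.2 times as frequent as 3 and 5, so both mates of a pair appear to add to a count, and 3 read pairs were set equal to 6 counts. The deposited variance-stabilised table, on a log2 scale, was used only to match symbols to identifiers. The authors' length values in bases per gene gave RPKM.

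In R 4.3.3, edgeR 4.0.16 (with limma 3.58.1) took the 6 libraries of a line together, after filterByExpr and TMM. Its quasi-likelihood test was two-sided and robust=TRUE, and p-values were adjusted by Benjamini-Hochberg across the genes that passed the filter. A fit of 6 group means over 12 libraries tested the parental lines and differences between lines. Passing meant an adjusted p under 0.1. The study's further limit, an absolute log2 fold change over 1.5, was an alternative, as were DESeq2 1.42.0 and other filters. Intervals use the total degrees of freedom of the quasi-likelihood test, which add prior ones estimated over all genes to the residual ones. The fit was tested on simulated data. The titles gave each sample its line and its group. The 9 genes follow a rule on symbols that uses no measured value, but they and the lists were chosen with earlier results of these data known. Named are all 9 genes, NFE2L2, KEAP1 and BACH1, up to 3 genes per list and direction with the largest change among those that passed within a line, and the 5 genes most alike for SLC7A11 and GPX2. CD44 was added after its values were seen. Genes that overlap SLC7A11, GCLC and NQO1 had mean counts of at most 2.25. Read sequences and isoform usage were not analysed here.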

Additional observations from a re-analysis of the deposited data

How the results depend on the processing

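The calls on GPX2 in SW480 held under every alternative run, between 3.12 and 3.19 on the log2 scale in CD44s-OE and between 3.43 and 3.47 in CD44v6-OE when no library was left out. Other counts of the 9 genes that passed were small and moved. In HCT116 CD44s-OE against parental, 1 became 0 with the fold limit of 1.5, at an adjusted p under 0.05 and with only the groups compared, and 2 with counts halved, with a mean count of at least 50 and with no filter. Over all genes, 2455 of 17335 became 536 with the fold limit, 1316 at an adjusted p under 0.05 and 1056 of 16683 with only the groups compared. They became 2560 of 15541 with counts halved, 2325 of 13302 with the mean count and 3118 of 36008 with no filter. In HCT116 CD44v6-OE against parental, 0 became 1 in DESeq2 and with no filter, and 2 with only the groups compared. Over all genes, 266 of 17335 became 560 of 17159 in DESeq2, 788 of 36008 with no filter and 1791 of 16711 with only the groups compared. In SW480 CD44s-OE, 2 became 1 against parental with the fold limit and with only the groups compared, and 1 became 0 against CD44v6-OE with the fold limit. Over all genes, 828 of 17539 became 356 and 529 of 16973 against parental, and 371 of 17539 became 179 against CD44v6-OE. In the parental lines, 7 became 2 with the fold limit, and over all genes 11914 of 19567 became 5670. For the differences between lines, 0 became 1 in DESeq2 in all 3, and with no filter 1, 1 and 2 (CD44v6-OE effect), and 1 for the CD44v6-OE effect with robust=FALSE. Over all genes in the CD44v6-OE effect, 80 of 19567 became 343 of 18469 in DESeq2, 464 of 40400 with no filter and 85 with robust=FALSE. In the CD44s-OE effect 768 of 19567 became 1620 of 15336 in DESeq2 and 1449 of 40400 with no filter. For the isoforms 96 became 343 of 16902 and 435 of 40400. The cause was not tested.

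Replicate numbers did not pair the samples: the correlation of same-numbered deviations ran from -0.163 to 0.161. With the replicate number as a block, 2 of the 9 genes passed in HCT116 CD44s-OE against parental, beside 2860 of 17335 over all genes. In HCT116 CD44v6-OE 1 passed, beside 393 of 17335, and in the CD44v6-OE difference between lines 1, beside 72 of 19567. HMOX1 in SW480 CD44s-OE turned from -0.07 to 0.01 (0.007).

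With 1 library left out, the count that passed ran from 0 to 4 (HCT116 CD44s-OE against parental), 0 to 2 (HCT116 CD44v6-OE), 0 to 3 (HCT116 isoforms), 1 to 3 (SW480 CD44s-OE), 1 to 2 (SW480 CD44v6-OE), 0 to 1 (SW480 isoforms), 6 to 8 (parental lines), and, between lines, 0 to 2 (CD44s-OE), 0 to 1 (CD44v6-OE) and 0 to 1 (isoforms). A group left with 1 library was assumed to vary like the others.

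Signs turned only for fold changes that had not passed, with these log2 ranges over the libraries left out. In HCT116 CD44s-OE against CD44v6-OE, SLC3A2 ran from -0.26 to 0.087. In HCT116 CD44s-OE against parental, GCLC ran from -0.39 to 0.003, GPX4 ran from -0.17 to 0.09 and SLC3A2 ran from -0.45 to 0.001. In HCT116 CD44v6-OE against parental, NQO1 ran from -0.215 to 0.001, SLC3A2 ran from -0.38 to 0.072 and SLC7A11 ran from -0.15 to 0.48. In SW480 CD44s-OE against CD44v6-OE, GPX2 ran from -0.90 to 0.17 and TXNRD1 ran from -0.10 to 0.23. In SW480 CD44s-OE against parental, HMOX1 ran from -0.55 to 0.64, SLC7A11 ran from -0.092 to 0.39 and TXNRD1 ran from -0.39 to 0.19. In SW480 CD44v6-OE against parental, GCLC ran from -0.19 to 0.12, GPX4 ran from -0.046 to 0.11, HMOX1 ran from -0.94 to 0.25, SLC7A11 ran from -0.28 to 0.051 and TXNRD1 ran from -0.46 to 0.12. In the difference between lines in CD44s-OE against CD44v6-OE, GCLC ran from -0.068 to 0.32 and SLC7A11 ran from -0.36 to 0.21. In the difference between lines in CD44s-OE against parental, GCLC ran from -0.22 to 0.16, HMOX1 ran from -0.94 to 0.26, SLC3A2 ran from -0.13 to 0.32, SLC7A11 ran from -0.66 to 0 and TXNRD1 ran from -0.029 to 0.55. In the difference between lines in CD44v6-OE against parental, GCLC ran from -0.30 to 0.008, GCLM ran from -0.093 to 0.17, NQO1 ran from -0.10 to 0.11, SLC3A2 ran from -0.32 to 0.13, SLC7A11 ran from -0.55 to 0.068 and TXNRD1 ran from -0.495 to 0.088. The difference between lines in CD44v6-OE against parental turned for NQO1 also in DESeq2 (0.002), with RLE size factors (0.001) and with no filter (0.02).

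Depth limits GPX2 in HCT116, where the libraries held 2 to 28 counts, and the number of libraries, 2 per group, limits every other value.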
